A study of Mus musculus with 9 samples.

Results

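The clustered replication-dependent histone genes are the genes that supply most new histone protein when a cell copies its DNA. They were taken as the protein-coding genes of GENCODE M21 whose names begin with Hist1h, Hist2h, Hist3h or Hist4. This gave 67 of the 55471 genes listed in the count files: 6 for the linker histone H1, 18 for H2A, 18 for H2B, 12 for H3 and 13 for H4. In that annotation of GRCm38 (the assembly also called mm10), 54 lie in the Hist1 cluster on chromosome 13 (21715763 to 23934851, a span of 2219 kb), 10 in the Hist2 cluster on chromosome 3 (96219865 to 96270132), 2 in the Hist3 cluster on chromosome 11 and 1, Hist4h4, on chromosome 6. Of the 67, 62 have a single annotated exon.

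Core histones H2A, H2B, H3 and H4 form the particle that DNA wraps around, and H1 binds the linker between particles. Messages of these genes are made in S phase, when DNA is replicated, and most of them end in a short stem-loop in place of a poly(A) tail. The stem-loop is bound by SLBP, which is needed for the cut that forms the end of the message. Some of these genes also give longer messages with a poly(A) tail, in cells that have stopped dividing among others. Antigen-specific CD8+ T cells divide quickly after an infection, so histone supply belongs to their clonal expansion.

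The libraries were made from mouse CD8+ T cells that carry OT-I, a transgenic receptor for an ovalbumin peptide. Control cells (Bdh1-WT;shCtrl, n = 4) had intact Bdh1 and a short hairpin RNA against firefly luciferase, and the DKO cells (Bdh1-KO;shOxct1, n = 5) were labelled as a Bdh1 knockout that received a hairpin against Oxct1. Cells of both groups were activated in culture with anti-CD3ε, anti-CD28 and IL-2, transduced, sorted on the Ametrine reporter and moved into C57BL/6 (CD45.1) mice, which were infected 1 day later with LmOVA, a Listeria strain that makes ovalbumin. On day 7 after infection they were sorted on CD45.2 and Ametrine, so each library is a bulk of transferred cells that had kept the reporter; the labels give neither the age of the mice nor the number of donors, and p-values here measure only the spread between these samples. Polyadenylated RNA was used with SMART-Seq v4, which copies RNA from the poly(A) tail.

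Each library held 45205993 to 59853080 counts in genes. The targeted genes had the labelled direction: Oxct1 fell from 63.1 ± 5.73 CPM (counts per 1000000, SD, n = 4) in control to 5.16 ± 0.369 (SD, n = 5) in DKO (log2 fold change -3.61, adjusted p 4.58e-09), and Bdh1 from 30.5 ± 4.16 to 10.6 ± 1.24 CPM (-1.52, adjusted p 1.36e-04, both by edgeR's quasi-likelihood test, with p adjusted by Benjamini and Hochberg's method over 14918 genes). CD8 T cell markers were high, with Cd8a at 718.9 CPM in the controls and 715.2 CPM in the DKO libraries. Past the threshold 1 of 6, Cd8b1, fell (adjusted p 0.0428 in edgeR), where 1.51% of all tested genes fell. Of the 6, 5 lay below 0 and 3 had an unadjusted p under 0.05 in edgeR (51.4% and 16% of all tested genes). The list summed to 7019.7 ± 721.8 CPM in the controls and 6139.9 ± 401.8 CPM in the DKO libraries. Control replicate 1 stood apart, at -79.1 on the first principal component of log2 CPM and with 16.7% of reads unmapped, and control replicate 3 stood apart on the second, at -70.2. Among DKO libraries, replicate 5 had the highest sums of S phase and mitosis genes, given further on. Of 10 myeloid markers, 8 were tested and 2, Ctss and Cd68, fell in DKO past the threshold in edgeR (3 fell and 1 rose in DESeq2); the list summed to 165.7 to 200.4 CPM in the controls and 116.1 to 126.0 CPM in the DKO libraries, while the defining neutrophil genes S100a8 and S100a9 were at most 0.122 CPM on average in either group. B cell, erythroid and platelet, and CD4 T cell markers had 0 of 6, 0 of 8 and 0 of 4 tested genes past the threshold in edgeR (0, 0 and 2 at an unadjusted p under 0.05). In DESeq2 0, 0 and 1 of them passed, and in limma-voom 0, 2 and 1. These markers were not absent. B cell genes added up to 220.5 ± 37.8 CPM (control) and 199.8 ± 9.60 CPM (DKO). Most of this was Ighm, at 208.6 and 188.2 CPM, while Pax5 had 0 counts. Erythroid and platelet genes reached 27.4 ± 11.9 CPM (control) and 32.5 ± 17.6 CPM (DKO). Totals for CD4 T cell genes were 35.2 ± 3.68 CPM (control) and 41.7 ± 4.67 CPM (DKO), although Cd4 itself was at 0.172 and 0.344 CPM. The part of these markers in the histone values was not tested.

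The sequence of the stem-loop separated H4 from the other classes. It was searched in the first 100 bases after the stop codon of the longest annotated 3′ UTR as 6 paired bases (G-T pairs allowed) that open with GG and close with CC around a loop of 4 bases. Of the 52 members with at least 16 annotated bases there, 45 (86.5%) had it. Among other protein-coding genes, 188 of 19892 (0.945%) had it, counted only where at least 100 bases were annotated, so the 2 shares rest on unlike rules. The other 15 members had too short an annotated 3′ UTR to be searched. The stem began 22 to 59 bases after the stop codon (median 32). The rising arm was GGCTCT in all 33 matching genes of H1, H2A, H2B and H3, and GGCCCT (10 genes) or GGTCCT (2 genes) in the 12 matching genes of H4. The runs below are those of the genes that dominate each class or lay nearest to the threshold, with the paired arms in capitals, read 5′ to 3′ on the strand of the gene from GENCODE M21 transcripts (GRCm38).
Hist1h1c (chr13:23739507-23739532, plus strand): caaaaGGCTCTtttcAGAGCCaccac
Hist1h1e (chr13:23621777-23621802, minus strand): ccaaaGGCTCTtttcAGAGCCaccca
Hist1h2ae (chr13:23570663-23570688, minus strand): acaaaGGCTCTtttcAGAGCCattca
Hist3h2ba (chr11:58949344-58949369, plus strand): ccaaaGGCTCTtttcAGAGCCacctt
Hist1h3e (chr13:23561898-23561923, minus strand): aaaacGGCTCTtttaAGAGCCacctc
Hist1h4d (chr13:23581945-23581970, plus strand): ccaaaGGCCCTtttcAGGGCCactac
Hist1h4c (chr13:23698084-23698109, minus strand): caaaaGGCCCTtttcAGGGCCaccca
Hist1h4h (chr13:23531453-23531478, plus strand): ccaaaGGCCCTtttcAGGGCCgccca

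A library primed on poly(A) tails favours histone messages that have a tail, so the poly(A) signal was searched too. The words AATAAA and ATTAAA were looked for on the strand of the gene in the last 40 bases of the annotated 3′ UTR. Of 51 members with at least 40 such bases, 17 (33.3%) had a word, against 73.1% of 20714 other protein-coding genes. A match is a description of the annotated end, not a measured site of cleavage. These runs belong to 4 of the genes whose values are given below, with the word in capitals. Hist2h2be is shown because it had this word and no stem-loop match in the window searched.
Hist2h2be (chr3:96223709-96223730, plus strand): ttattattAATAAAgttaccga
Hist1h1c (chr13:23740334-23740355, plus strand): atgcttctAATAAAaagcgttt
Hist3h2ba (chr11:58949499-58949520, plus strand): atggtattAATAAAtttggttc
Hist1h4h (chr13:23531480-23531501, plus strand): attttcttATTAAAagagcgaa

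Members with a long annotated 3′ UTR carried most of the signal. Split at 150 bases, a value chosen after the annotation was seen, 28 members had 150 or more bases and held 89.96% of the members' summed CPM, and 39 had fewer and held 10.04%. The median level per length was 0.431 CPM per kb of exon in the first set and 0.190 CPM per kb in the second. A poly(A) word was found in 16 of the 28 and in 1 of the 39, which was Hist1h4h. Many of the 39 had few or no annotated bases after the stop codon and could not hold a word. The difference in words is thus partly fixed by the split. Members with short 3′ UTRs also share more sequence with other histone genes: the median share of 50-base words found in no other M21 gene was 76.7% in the long set and 34.2% in the short set. Only uniquely mapped reads were counted, so shared sequence lowers a count; the parts of shared sequence and of the missing tail in these low levels cannot be told apart.

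**Figure D1:**
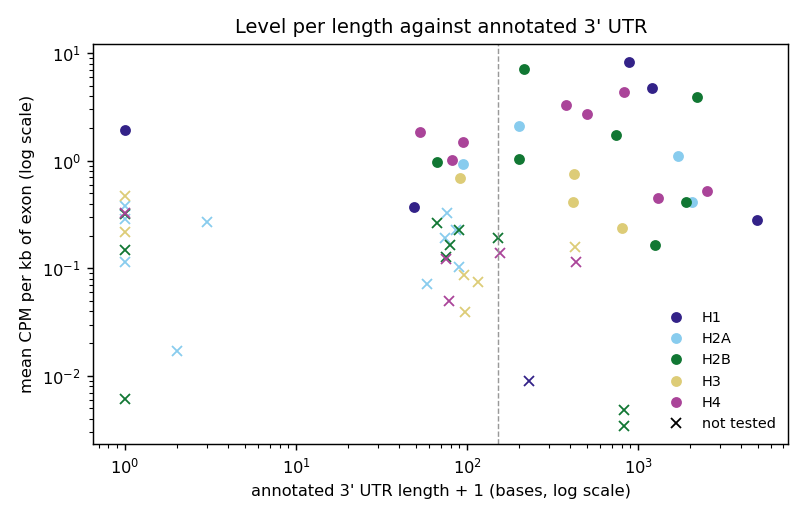
Mean level over 9 libraries (CPM per kb of exon, log scale) against annotated 3′ UTR length plus 1 base (log scale) for the 60 members with at least 1 count, coloured by class, with crosses for members too low to be tested and a dashed line at 150 bases. The members above 3 CPM per kb all lie to the right of the line.

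Counted without regard to strand, 28 members passed the filter on low counts and were tested, and 39 did not. The 28 held 96.4% of the members' 31981 counts. Of the 39, 32 had at least 1 count and 7 had 0 in all libraries, where 3 counts over all libraries would be 0.00647 CPM (this floor covers counting error only). Of these 7, 6 had reads in the columns counted by strand, and Hist2h3c1 had 0 in every column. Exons of Hist2h3c1 and Hist2h2aa1 overlap Gm20634 on the same strand, and an exon of Hist2h2bb overlaps Gm42743. Reads in such an overlap are left out of every column, so low or 0 counts of these genes cannot be read as absence.

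On a per-length scale, the highest member was Hist1h1c, a linker histone gene, at 8.26 CPM per kb over all libraries. It was followed by Hist3h2ba (H2B) at 7.12, Hist1h1e (H1) at 4.79, Hist1h4d (H4) at 4.32 and Hist2h2be (H2B) at 3.88 CPM per kb. Highest in H2A was Hist1h2ae, at 2.11 CPM per kb, and in H3 it was Hist1h3e, at 0.75 CPM per kb. In summed CPM, which is not per length, H1 made up 37.6% of the members' signal, H2B 29.7%, H4 20.3%, H2A 9.06% and H3 3.44%.

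No histone gene passed the threshold between control and DKO. In edgeR's quasi-likelihood test, 0 of 28 tested members had an adjusted p under 0.05, where 2.83% of all tested genes (422 of 14918) did. At an unadjusted p under 0.05 there were 6 of 28 (21.4%), 3 higher and 3 lower in DKO, against 16% of all genes. The fitted change was above 0 for 11 and below 0 for 17 members, with a median of -0.16 on the log2 scale; over all tested genes 48.6% were above 0 and the median was -0.01. The DESeq2 Wald test called 3 members, Hist2h2be, Hist1h4h and Hist1h2ae (adjusted p 0.00969, 0.0156 and 0.0312; 8.41% of all genes passed), and limma-voom with quality weights called 1, Hist1h4h (adjusted p 0.0353; 6.68% passed).

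The standard errors of the members' log2 fold changes were wide, from 0.14 to 0.73 with a median of 0.31, against a median of 0.17 over all tested genes. At this precision, differences within these errors were not detectable. In bulk RNA, a different share of cells in S phase and a different amount of histone RNA per cell cannot be told apart. The S phase genes themselves, given further on, were higher in DKO. Control and DKO libraries were fully separated in CPM for 2 of the 28 members (7.14%), Hist1h1b and Hist1h4h, against 8.7% of all tested genes.

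**Figure D2:**
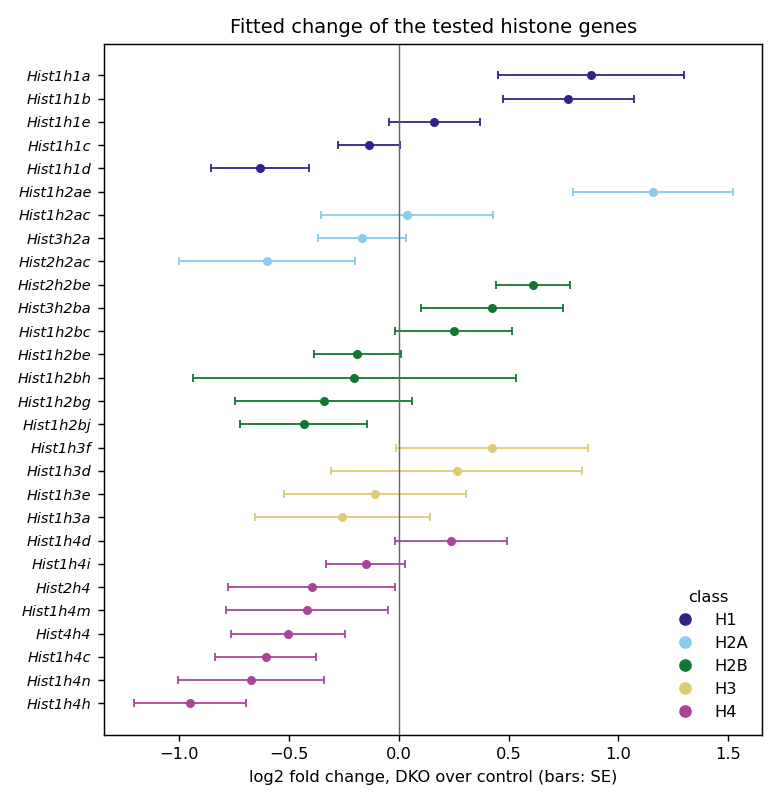
Fitted log2 fold change, DKO over control, of the 28 tested members (points, with bars of 1 SE), ordered within class and coloured by class. H4 members lie mostly left of 0, with Hist1h4d alone to the right, and Hist1h2ae has the highest value, 1.16.

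Linker histone genes gave the most counts and went both ways, with 5 of 6 tested, 3 above and 2 below 0. The class summed to 31.1, 22.2, 22.5 and 28.4 CPM in control replicates 1 to 4 and to 22.2, 22.9, 23.8, 31.2 and 29.1 CPM in DKO replicates 1 to 5. The ranges were nearly the same, and the means were 26.0 ± 4.44 CPM (SD, n = 4) and 25.8 ± 4.05 CPM (SD, n = 5).

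Hist1h1c (ENSMUSG00000036181.2, chr13:23738808-23740367, plus strand, 1 exon) and Hist1h1e (ENSMUSG00000051627.3, chr13:23620629-23622558, minus strand, 1 exon) made up most of that sum. Hist1h1c stood at 16.6, 11.2, 12.4 and 13.99 CPM in the controls and at 11.3, 11.2, 11.4, 12.8 and 14.9 CPM in the DKO libraries, which edgeR fitted as a log2 change of -0.13 ± 0.14 SE (adjusted p 0.695). With 1 library left out this value ranged from -0.21 to -0.03. Its groups overlapped almost fully, and so did those of Hist1h1e. Hist1h1e stood at 10.8, 7.48, 6.46 and 9.88 CPM in the controls and at 7.73, 8.48, 9.33, 14.04 and 8.93 CPM in the DKO libraries (edgeR log2 change 0.16 ± 0.21 SE, adjusted p 0.748), and without DKO replicate 4, its highest library, the value was -0.01. An exon of Hist1h1e overlaps one of Hist1h2be on the same strand, so reads there go to neither gene.

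Hist1h1b (ENSMUSG00000058773.2, chr13:21779883-21780625, minus strand) is a linker histone gene with no annotated 3′ UTR. It stood at 0.887, 1.19, 0.906 and 1.16 CPM in the controls and at 1.38, 1.42, 1.43, 1.48 and 3.17 CPM in the DKO libraries. All 5 DKO libraries lay above all 4 controls, and replicate 5 lay far above the other DKO libraries. The edgeR fit gave a log2 change of 0.77 ± 0.30 SE (adjusted p 0.227), and over leaving out each library it ranged from 0.46 (without DKO replicate 5) to 0.85. Hist1h1a, with 128 counts in all, was at 0.187 ± 0.0739 CPM in the controls and 0.349 ± 0.133 CPM in the DKO libraries (edgeR log2 change 0.87 ± 0.42 SE, adjusted p 0.344; 0.57 in limma-voom).

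Hist1h1d (ENSMUSG00000052565.7, chr13:23553262-23560686, plus strand) had the longest annotated 3′ UTR of the members, 4931 bases, and pointed the other way. It was at 2.64, 2.01, 2.61 and 3.09 CPM in the controls and 1.48, 1.51, 1.39, 2.45 and 1.52 CPM in the DKO libraries. Of the 5 DKO libraries, 4 lay below every control, and DKO replicate 4 lay among the controls. The edgeR fit gave a log2 change of -0.63 ± 0.22 SE (adjusted p 0.181). The sixth linker gene, Hist1h1t, which is known from the testis, had 4 counts in all.

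**Figure D3:**
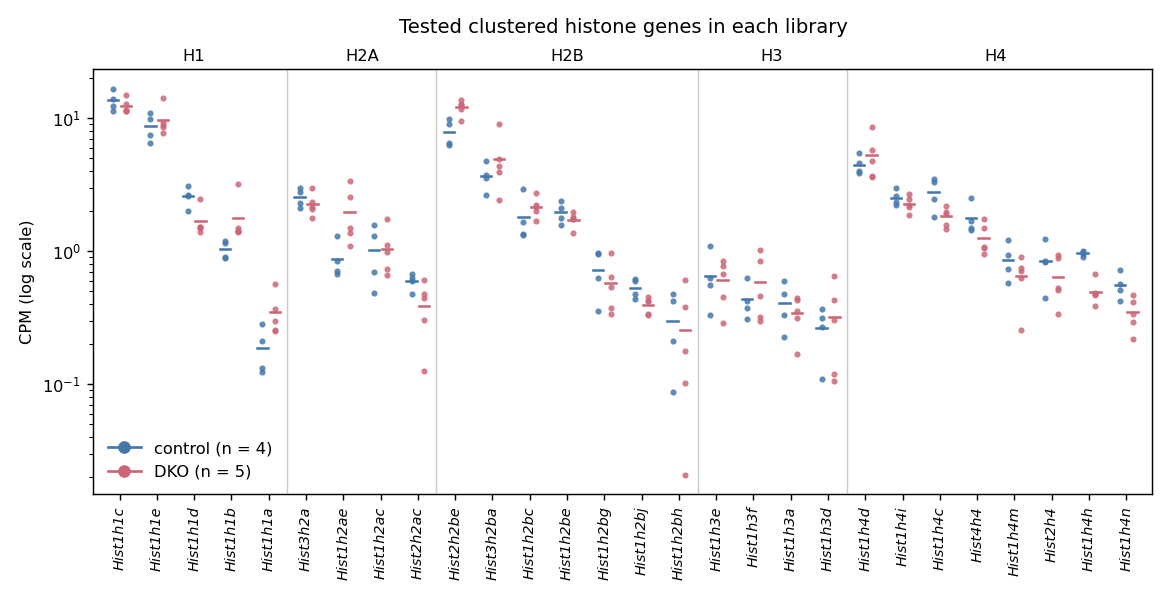
CPM (log scale) of each of the 28 tested members in the 4 control and 5 DKO libraries, grouped by class and ordered by level; points are libraries and short lines are group means. Most pairs of groups overlap, while Hist1h4h is lower and Hist1h1b higher in every DKO library.

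In H2A, the counting method set what could be read. All 18 H2A genes have an exon under a gene on the opposite strand, which for 17 of them is a predicted miRNA, and a read that falls in both genes is left out when strand is ignored. With the columns for each strand added together, the H2A count was 1.94 times that without strand, against 1.00 for H1 and H2B, 1.37 for H3 and 1.018 for H4. The library kit gave nearly equal reads from both strands (49.9 to 50.1% in the first column), so the added reads may belong to either gene. Without strand, 4 H2A genes were tested, 2 above and 2 below 0. With the strand columns summed, 9 were tested, 4 above and 5 below 0, with a lowest adjusted p of 0.133 in edgeR. Over all classes, 35 members were tested this way, and 0 passed in edgeR (2.88% of 16250 genes did), with 8 (22.9%) at an unadjusted p under 0.05, against 16.2% of those genes.

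The H2A class summed to 5.77 ± 0.376 CPM in the controls and 6.64 ± 1.56 CPM in the DKO libraries, and with the strand columns summed to 9.77 ± 0.809 and 12.2 ± 3.46 CPM. By library, the second sums were 10.01, 10.6, 8.64 and 9.85 CPM in the controls and 10.5, 8.61, 10.3, 14.99 and 16.7 CPM in the DKO libraries. DKO replicates 4 and 5 were above every control, and the other 3 DKO libraries lay within or next to the control range.

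Hist1h2ae (ENSMUSG00000069272.6, chr13:23570517-23571220, minus strand), an H2A gene with a stem-loop and a poly(A) word, had the largest fitted increase of all tested members. It was at 0.846, 1.30, 0.708 and 0.668 CPM in the controls and 1.502, 1.1004, 1.37, 2.53 and 3.34 CPM in the DKO libraries. DKO replicate 2 alone lay inside the control range. The edgeR fit gave a log2 change of 1.16 ± 0.36 SE (adjusted p 0.130), 1.097 (adjusted p 0.133) with the strand columns summed and 0.75 in limma-voom. That sum was 2.90 times the count without strand, so its level is uncertain. Without Hist1h2ae, removed after its values were seen, the H2A sum was 4.90 ± 0.141 CPM in the controls and 4.67 ± 0.693 CPM in the DKO libraries.

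Hist3h2a, the H2A gene of the chromosome 11 cluster, was at 2.54 ± 0.403 CPM in the controls and 2.26 ± 0.454 CPM in the DKO libraries (edgeR log2 change -0.16 ± 0.20 SE, adjusted p 0.736; -0.29 to -0.08 with 1 library left out). An exon of Hist3h2a overlaps one of Trim17 on the same strand, so reads there go to neither gene and the level of Hist3h2a is uncertain. Hist2h2ac was at 0.592 ± 0.0839 and 0.391 ± 0.182 CPM (edgeR log2 change -0.60 ± 0.40 SE, adjusted p 0.511). With strand columns summed Hist2h2ac was at 1.61 ± 0.0972 and 1.22 ± 0.346 CPM, and the log2 fold change was -0.40, while limma-voom on the counts without strand gave -0.996. Its opposite-strand partner is a predicted miRNA, so these levels are uncertain in the same way.

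H2B was the class whose summed CPM did not overlap between the groups. It summed to 17.8, 20.2, 17.6 and 15.01 CPM in the controls and 20.5, 22.1, 21.4, 28.9 and 20.8 CPM in the DKO libraries, means of 17.6 ± 2.10 and 22.7 ± 3.48 CPM and a log2 ratio of 0.37. The gap between the groups was narrow, from 20.2 in control replicate 2 to 20.5 in DKO replicate 1. No test was made of a sum over members. Most of the difference lay in Hist2h2be: without it, removed after its values were seen, the sums were 9.77 ± 1.30 and 10.7 ± 2.80 CPM and overlapped.

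Hist2h2be (ENSMUSG00000068854.7, chr3:96221119-96223738, plus strand) encodes an H2B protein and has a 3′ UTR of 2192 bases. It stood at 6.48, 9.77, 8.95 and 6.26 CPM in the controls and at 12.7, 12.6, 11.7, 13.6 and 9.52 CPM in the DKO libraries. DKO replicate 5 was the only DKO library within the control range. The edgeR fit gave a log2 change of 0.61 ± 0.17 SE (adjusted p 0.0840), and it stayed between 0.52 and 0.74 with each library left out. The count rested on 314 to 742 reads a library. All of its 50-base words were unique among M21 transcripts, and its strand columns added no read. No sharing of such words with annotated transcripts and no loss to an opposite-strand gene was thus found for this count. Sequence outside annotated transcripts was not searched.

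Hist3h2ba (ENSMUSG00000056895.4, chr11:58948920-58949533, plus strand), an H2B gene with a stem-loop and a poly(A) word, varied more between DKO libraries than between groups. It was at 3.73, 4.75, 2.63 and 3.57 CPM in the controls and 2.41, 4.37, 4.96, 8.98 and 3.93 CPM in the DKO libraries. DKO replicate 1 was below all controls and DKO replicate 4 far above them. The log2 change of 0.42 ± 0.32 SE in edgeR (adjusted p 0.569) was 0.09 without DKO replicate 4 and 0.05 in limma-voom with quality weights. Hist1h2bc was at 1.81 ± 0.759 CPM in the controls and 2.16 ± 0.381 CPM in the DKO libraries (edgeR log2 change 0.25 ± 0.27 SE, adjusted p 0.698). That value was 0.57 without control replicate 1 and in limma-voom, and 0.13 without control replicate 2 or 4. Of the 7 H2B genes tested, 3 were above and 4 below 0.

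H2A and H2B genes often stand head to head, sharing the stretch between their start sites. Among the members, 12 such pairs lay 175 to 305 bases apart, and in 4 pairs both genes were tested with the strand columns summed. The pair of Hist2h2be and Hist2h2ac, 238 bases apart, had log2 fold changes of 0.61 ± 0.17 SE and -0.40 ± 0.22 SE. Hist1h2ae and Hist1h2bg, 175 bases apart, had 1.097 ± 0.35 SE and -0.35 ± 0.40 SE. Hist1h2ag and Hist1h2bj had 0.97 ± 0.45 SE and -0.44 ± 0.29 SE, and Hist1h2ac and Hist1h2bc had -0.06 ± 0.37 SE and 0.25 ± 0.27 SE. Several of these values lay within about 1 SE of 0, so their signs are uncertain. Each pair held values of opposite sign in these sums (without strand, Hist1h2ac was at 0.04 and Hist1h2ag was not tested), and 0 of these 8 genes passed the threshold in edgeR (2 had an unadjusted p under 0.05, Hist2h2be and Hist1h2ae). Whether the genes of a pair differ in their change was not tested.

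H3 was the class with the fewest counts. It summed to 1.86, 2.68, 1.99 and 3.25 CPM in the controls and 1.62, 1.76, 2.00, 3.10 and 3.11 CPM in the DKO libraries, and the groups overlapped. Of 12 genes, 4 were tested, 2 above and 2 below 0. Hist1h3e was at 0.651 ± 0.319 and 0.608 ± 0.232 CPM (edgeR log2 change -0.11 ± 0.41 SE, adjusted p 0.926), and its sign turned without control replicate 4 (0.26) or DKO replicate 2 (0.07). Hist1h3a was at 0.407 ± 0.162 and 0.342 ± 0.110 CPM (edgeR log2 change -0.26 ± 0.40 SE, adjusted p 0.80), and Hist1h3f at 0.433 ± 0.14 and 0.587 ± 0.323 CPM (edgeR log2 change 0.42 ± 0.44 SE, adjusted p 0.686). With 1 library left out, Hist1h3a ranged from -0.46 (without control replicate 1) to -0.01 (without control replicate 4). Hist1h3f ranged from 0.13 (without DKO replicate 5) to 0.67 (without control replicate 4) and was 0.06 in limma-voom. Hist1h3i, next in the class by level per length, had 90 counts in all and was not tested. Only 12.4% of its 50-base words were unique.

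Hist2h3b, an H3 gene on chromosome 3 (96268654 to 96269141, plus strand), had reads once strand was taken into account. It had 0 counts in every library without strand, and 39, 73, 45 and 79 counts in control and 37, 31, 29, 40 and 27 counts in DKO with the strand columns summed. In CPM these were 0.741, 1.17, 0.915 and 1.27 in control and 0.669, 0.481, 0.557, 0.715 and 0.523 in DKO, so every DKO library was below every control. On these sums edgeR fitted a log2 change of -0.80 ± 0.26 SE (unadjusted p 0.00931, adjusted p 0.138). An antisense RNA, Gm20628, covers it, so these reads may belong to either gene. This gene was chosen after its values were seen.

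**Figure D4:**
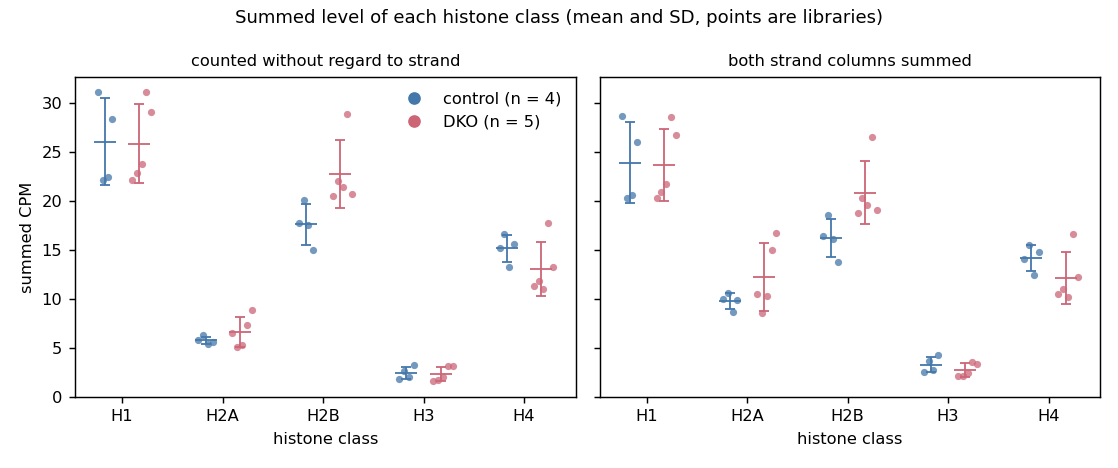
Summed CPM of each histone class by library (points), with mean and SD, counted without regard to strand (left) and with the strand columns summed (right). H2A is the class that gains most on the right, and H2B is the class whose DKO libraries all lie above the controls in each panel.

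H4 genes lay mostly below 0: of 8 tested, 7 were lower in DKO and 1, Hist1h4d, was higher, with a class median of -0.46 on the log2 scale (51.4% of all tested genes were lower). The class summed to 15.2, 16.6, 13.3 and 15.7 CPM in the controls and 11.3, 11.9, 10.99, 17.7 and 13.3 CPM in the DKO libraries. DKO replicate 4 was above every control, DKO replicate 5 was level with the lowest control, and the other 3 DKO libraries were below all controls. The mean was 15.2 ± 1.39 CPM in the controls and 13.0 ± 2.77 CPM in the DKO libraries. In edgeR 0 of the 8 passed, with 2 at an unadjusted p under 0.05, and in DESeq2 and limma-voom 1 did, Hist1h4h. All H4 genes encode the same or nearly the same protein, and many share most of their coding sequence.

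Hist1h4h (ENSMUSG00000060981.7, chr13:23531050-23531519, plus strand) had the lowest adjusted p of all members and was the member with a short 3′ UTR, 93 bases, that holds both a stem-loop and a poly(A) word. It stood at 0.908, 0.981, 0.951 and 1.00 CPM in the controls and at 0.672, 0.474, 0.483, 0.390 and 0.465 CPM in the DKO libraries. The controls were close together, and every DKO library was below them. The edgeR fit gave a log2 change of -0.95 ± 0.26 SE (adjusted p 0.0795), and it ranged from -1.08 to -0.87 with each library left out. Of its 50-base words, 54.2% were unique, and it had 327 counts in all, so its level is uncertain.

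Hist1h4d (ENSMUSG00000061482.7, chr13:23581598-23582735, plus strand) gave the most H4 reads. It was at 3.84, 5.45, 4.02 and 4.57 CPM in the controls and 3.70, 5.77, 3.61, 8.55 and 4.74 CPM in the DKO libraries, with DKO replicate 4 alone far above the rest. Its log2 change of 0.24 ± 0.25 SE in edgeR (adjusted p 0.697) became -0.01 without that library and -0.11 in limma-voom with quality weights. Without Hist1h4d, removed after its values were seen, the H4 class summed to 9.26 to 11.3 CPM in the controls and 6.08 to 9.17 CPM in the DKO libraries.

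Hist1h4c (ENSMUSG00000060678.5, chr13:23697635-23698454, minus strand) was at 3.28, 3.50, 1.81 and 2.46 CPM in the controls and 1.58, 1.46, 1.97, 1.89 and 2.20 CPM in the DKO libraries. Control replicate 3 lay among the DKO libraries and the other 3 controls above them, and edgeR fitted a log2 change of -0.61 ± 0.23 SE (adjusted p 0.217). Hist1h4n, with 14.4% unique words, was at 0.553 ± 0.127 and 0.347 ± 0.0976 CPM (edgeR log2 change -0.67 ± 0.33 SE, adjusted p 0.357). Hist1h4i was at 2.53 ± 0.342 and 2.28 ± 0.316 CPM (edgeR log2 change -0.15 ± 0.18 SE, adjusted p 0.732; -0.22 to -0.06 with 1 library left out).

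By library, the members as a whole summed to 71.7, 67.9, 60.7 and 68.0 CPM in the controls and 62.2, 63.7, 63.5, 88.2 and 75.2 CPM in the DKO libraries, means of 67.1 ± 4.59 and 70.6 ± 11.2 CPM. DKO replicates 4 and 5 were the highest of all 9 libraries, and DKO replicates 1 to 3 lay in the lower part of the control range. Of the 28 tested members, 23 (82.1%) had their highest DKO value in replicate 4 (11 members) or replicate 5 (12 members), against 46.6% of all tested genes. These libraries are those with the highest member sums, so the comparison reuses the values that singled them out. The share is a description only, since the members also share libraries and sequence. Hist1h1d, Hist1h1e, Hist3h2ba and Hist1h4d were among those highest in replicate 4, and Hist1h1a, Hist1h1b, Hist1h1c and Hist1h2ae among those highest in replicate 5.

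Genes of DNA replication and mitosis, listed as partners of histone synthesis in the cell cycle, were higher in DKO. Of 30 S phase genes tested, 9 rose past the threshold and 0 fell (median log2 fold change 0.38), where 1.32% of all genes rose. They were Uhrf1, Clspn, Lig1, Cdc6, Cdc45, Rrm2, Mcm5, Rrm1 and Cdt1, with log2 fold changes from 0.41 (Cdt1, which loads the replicative helicase) to 1.83 (Cdc6, its partner in loading). Rrm2, a subunit of the enzyme that makes deoxynucleotides, was at 57.2, 60.1, 44.5 and 50.4 CPM in the controls and 94.4, 75.2, 99.0, 103.4 and 178.6 CPM in the DKO libraries (edgeR log2 change 1.05 ± 0.22 SE, adjusted p 0.0278). All DKO libraries were above all controls, and replicate 5 was far above the others. Mcm5, a subunit of the helicase, rose from 60.6 ± 6.24 to 103.1 ± 18.7 CPM (edgeR log2 change 0.77 ± 0.13 SE, adjusted p 0.0125). Pcna, the sliding clamp of replication, was at 91.7 ± 13.0 and 100.4 ± 10.03 CPM (edgeR log2 change 0.13 ± 0.11 SE, adjusted p 0.607).

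Uhrf1, Clspn, Lig1 and Mcm5 kept the threshold without each library in turn. In edgeR Cdc45 lost it without control replicate 4 (adjusted p 0.0703), Cdc6 when control 4 or DKO 1 or 3 was left out (0.0533 to 0.0745), Rrm2 when control 3 or 4 or DKO 1, 3 or 4 was left out (0.0512 to 0.0857), Rrm1 when control 3 or 4 or any DKO library was left out (0.0600 to 0.0790), and Cdt1 when control 2, 3 or 4 or DKO 1, 2, 3 or 5 was (0.0518 to 0.109). The count of 9 was 4 without control replicate 4 and 5 without DKO replicate 1 or DKO replicate 3, with 0 lower in each. The summed CPM of the S phase list was 1336.0, 1442.3, 1485.7 and 1434.3 in control and 1769.8, 1641.4, 1781.6, 1721.7 and 2182.4 in DKO. Every DKO library was above every control. DKO replicate 4, highest in histone CPM, was the second lowest DKO library in this sum, and replicate 5 was highest.

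Of 16 mitosis genes, 14 rose past the threshold and 0 fell (median log2 fold change 1.30), where 1.32% of all genes rose. This count was added after the data were seen. The count was 3 without control replicate 4, 7 without control replicate 3 or DKO replicate 3, 8 without DKO replicate 1 or DKO replicate 4 and 9 without DKO replicate 5, with 0 lower in each. Mki67, a marker of dividing cells, rose from 30.9 ± 10.5 to 59.2 ± 11.8 CPM (edgeR log2 change 0.94 ± 0.22 SE, adjusted p 0.0468), and lost the threshold when control 3 or 4 or any DKO library was left out (0.0573 to 0.130). The list summed to 148.5 to 289.0 CPM in the controls and 350.8 to 818.9 CPM in the DKO libraries, the last in replicate 5. The members' own fold changes were not tested against those of the S phase or mitosis genes, so a difference between the lists is not shown.

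**Figure D5:**
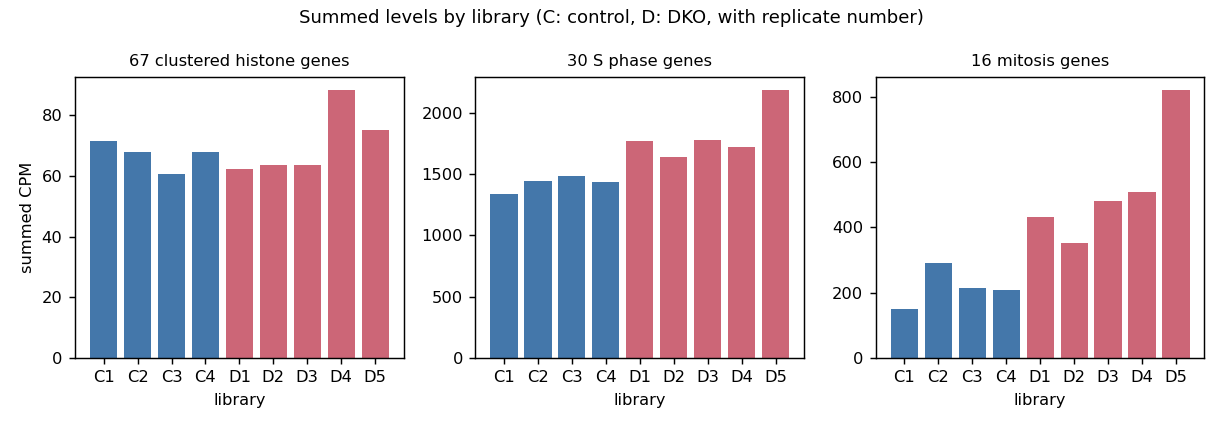
Summed CPM in each library (bars from 0; C, control; D, DKO; with replicate number) of the 67 clustered histone genes, the 30 S phase genes and the 16 mitosis genes. S phase and mitosis bars of every DKO library are above those of every control, while histone bars of DKO replicates 1 to 3 lie within the control range and that of replicate 4 is highest.

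Of 11 histone variants outside the clusters, 9 were measured more deeply than any member. The other listed variants, H2afy2 and H1fx, were at most 0.0432 CPM on average in either group and were not tested. Of the 9 tested, 1 rose and 0 fell past the threshold in edgeR (median log2 fold change 0.02), where 1.32% of all genes rose. The DESeq2 Wald test called 3, H2afx and Cenpa higher and H2afy lower, and limma-voom called 1. H2afx, which encodes H2A.X, the variant phosphorylated at DNA breaks, rose from 63.0 ± 5.57 to 104.5 ± 25.7 CPM (edgeR log2 change 0.73 ± 0.16 SE, adjusted p 0.0345). It was at 66.2, 65.7, 54.7 and 65.4 CPM in the controls and 96.6, 78.3, 100.9, 99.3 and 147.7 CPM in the DKO libraries, with no overlap. It lost the threshold when control 2, 3 or 4 or DKO 1, 3 or 4 was left out (0.0661 to 0.0834), and its strand columns summed to 1.398 times its count, so its level is uncertain.

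The genes of H2A.Z and H3.3 gave values close to 0. H2afz was at 297.3 ± 54.6 and 300.0 ± 30.6 CPM (edgeR log2 change 0.01 ± 0.12 SE, adjusted p 0.971). H3f3a was at 189.6 ± 26.1 and 178.6 ± 9.28 CPM (edgeR log2 change -0.09 ± 0.09 SE, adjusted p 0.702), and H3f3b at 1235 ± 344.1 and 1139 ± 80.9 CPM (edgeR log2 change -0.12 ± 0.15 SE, adjusted p 0.758); these 2 genes encode H3.3. The sign of each of the 3 turned under some alternatives, given in the closing section. Cenpa, the centromeric H3 variant, was at 53.1 ± 1.72 and 71.7 ± 13.3 CPM (edgeR log2 change 0.43 ± 0.13 SE, adjusted p 0.104). H2afy, which encodes macroH2A and was chosen after its values were seen, was at 374.4 to 519.1 CPM in the controls and 322.7 to 372.8 CPM in the DKO libraries, with no overlap (edgeR log2 change -0.35 ± 0.10 SE, adjusted p 0.103). Its strand columns summed to 1.55 times its count, so its level is uncertain.

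Of 18 factors that make or process histone messages, 0 passed the threshold in edgeR, with 5 at an unadjusted p under 0.05, and 0 passed in limma-voom. DESeq2 called 2, Zfp473 higher and Cpsf3 lower. Of the 18, 16 lay above 0 and 2 below (median 0.16). Over all tested genes 48.6% were above 0, and 16% had an unadjusted p under 0.05 in edgeR. Slbp, the stem-loop binding protein, was at 206.7 ± 31.5 and 210.6 ± 14.4 CPM (edgeR log2 change 0.03 ± 0.10 SE, adjusted p 0.925). Npat, which activates histone transcription, was at 55.6 ± 16.8 and 55.8 ± 3.21 CPM (edgeR log2 change 0.01 ± 0.18 SE, adjusted p 0.991), and control replicate 1 had the lowest value, 32.6 CPM. Casp8ap2, needed for histone message processing, was at 74.2 ± 13.1 and 83.6 ± 5.11 CPM (edgeR log2 change 0.17 ± 0.11 SE, adjusted p 0.509). Signs of Slbp and Npat turned under some alternatives.

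Of 18 histone chaperones, 1 rose and 0 fell past the threshold in edgeR (median 0.04), where 1.32% of all genes rose. DESeq2 called 2, Asf1b and Chaf1a, both higher (8.41% of all genes passed there). Asf1b, which hands H3 and H4 to the assembly factors in dividing cells, rose from 23.9 ± 2.32 to 47.7 ± 14.03 CPM (edgeR log2 change 1.00 ± 0.18 SE, adjusted p 0.0148) and lost the threshold without control replicate 4 (0.0584). It was at 22.8, 27.1, 23.9 and 21.8 CPM in the controls and 42.0, 38.7, 40.2, 45.2 and 72.4 CPM in the DKO libraries, with no overlap. Chaf1a, a subunit of the assembly factor CAF-1, was at 9.38 ± 1.53 and 14.7 ± 3.83 CPM (edgeR log2 change 0.64 ± 0.20 SE, adjusted p 0.125), with strand columns at 7.33 times its count. With those columns summed the value was 0.12 (adjusted p 0.538, edgeR), and in the DESeq2 Wald test it passed the threshold (adjusted p 0.0291), so both its level and its change are uncertain. Chaf1b, another CAF-1 subunit, was at 44.8 ± 5.35 and 49.9 ± 2.69 CPM (edgeR log2 change 0.15 ± 0.10 SE, adjusted p 0.471). Nasp, which holds the H3 and H4 reserve, was at 51.5 ± 7.69 and 58.1 ± 2.99 CPM (edgeR log2 change 0.17 ± 0.10 SE, adjusted p 0.459).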

How the data were processed

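Each library came as a table of whole-number counts that the authors deposited, 1 line a gene, as STAR writes it: reads counted without regard to strand, then by each strand. The submitters' processing notes list Trim Galore 0.6.0, STAR 2.7.8a and mm10; annotation and read length are not given there or in the labels. STAR counts reads that map to a unique place. All 67 members were found in GENCODE M21 by identifier and version. Totals that belong to no gene were dropped: unmapped reads were 10.3 to 16.7%, multimapping 5.80 to 6.79%, in no feature 4.01 to 5.20% and ambiguous 4.97 to 5.31%.

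The count without strand entered a robust quasi-likelihood fit (edgeR 4.0.16, R 4.3.3) with TMM scaling, after filterByExpr at count 10 and total 15, over all 9 libraries and 14918 genes, with Benjamini-Hochberg adjustment and a threshold of 0.05. Alternatives were DESeq2 size factors, the DESeq2 1.42.0 Wald test, limma-voom (limma 3.58.1) with quality weights, no filter, a stricter filter (1 CPM in 4 libraries), summed strand columns, a replicate block and leaving out each library. CPM were computed from the deposited counts. The script was tested on simulated data. Members and lists were chosen with earlier results of these data known. Genes were named by a rule: members past the threshold, the 3 highest per length of each class, the 5 largest fitted changes in each direction, genes past the threshold of the variant, message factor, chaperone and S phase lists, 16 list genes in any case, and the targeted genes; other genes given values are Hist2h3b, H2afy, the marker genes and the partners in head-to-head pairs. Figures and sequence searches used Python 3.11.15, pandas 2.3.3 and matplotlib 3.10.9.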

Additional observations from a re-analysis of the deposited data

Results flagged for a closer look

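A library was far from the others of its group in 15 of 106 groups of values checked (14.2%), where chance flags about 1 in 20; the values of a library are not independent of each other. Among the members, DKO replicate 4 stood apart at 14.04 CPM for Hist1h1e (the other DKO libraries were at 7.73 to 9.33 CPM), at 2.45 CPM for Hist1h1d (others 1.39 to 1.52 CPM) and at 28.9 CPM for the H2B sum (others 20.5 to 22.1 CPM). DKO replicate 5 stood apart at 3.17 CPM for Hist1h1b (others 1.38 to 1.48 CPM).

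Outside the members, DKO replicate 5 stood above the other DKO libraries for the S phase sum (2182.4 CPM), Rrm2 (178.6 CPM), Rrm1 (131.5 CPM), Lig1 (53.6 CPM), Uhrf1 (47.2 CPM), Cdc6 (17.7 CPM), Clspn (7.15 CPM), Asf1b (72.4 CPM) and Slbp (235.8 CPM). Control replicate 1 stood above the other controls for H2afz (378.2 CPM, others 259.0 to 278.2 CPM), and control replicate 3 below them for H2afx (54.7 CPM, others 65.4 to 66.2 CPM). The causes of these were not tested.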

How the results depend on the processing

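The count of 0 histone genes past the threshold was also found in edgeR with DESeq2 size factors, without a filter, with the stricter filter (15 members tested), with summed strand columns, with the replicate block and without each library, and was 3 in the DESeq2 Wald test and 1 in limma-voom. The count over all genes, 422, was 1059 in the DESeq2 Wald test, 996 in limma-voom and 67 with the replicate block; leaving out each library gave 179 (DKO replicate 1) to 749 (control replicate 1), with 187 without control replicate 4, 280, 180, 221 and 228 without DKO replicates 2 to 5 in turn. The S phase count of 9 was 2 with the block and 4 to 9 over left-out libraries, and the mitosis count of 14 was 3 with the block and 3 to 13 over left-out libraries; these list counts were added after the data were seen. Same-numbered control and DKO libraries had correlations of -0.12 to 0.01 in their deviations from group means, and none correlated best with its own number. These values gave no sign that the numbers pair the samples. Whether a number marks a shared donor or batch cannot be told from so few values. The log2 ratio of DKO to control in summed CPM of each class moved by less than the spread between replicates under the alternatives run, although the sums themselves changed with the strand columns and signs near 0 turned: with 1 library left out the ratio ranged from -0.088 to 0.073 for H1, from -0.21 to 0.092 for H3 (0.081 over the tested members) and from -0.021 to 0.11 for all members. Signs turned for values near 0: H2afz (stricter filter -0.0052, block -0.031, left-out libraries -0.049 to 0.14), Slbp (block -0.0052, left-out -0.023 to 0.13), Npat (limma-voom -0.10, stricter filter -0.0074, left-out -0.19 to 0.16), H3f3b (limma-voom 0.057, left-out -0.24 to 0.037), H3f3a (left-out -0.13 to 0.0016), Hist1h1e (left-out -0.0097 to 0.27), Hist1h3e (left-out -0.34 to 0.26) and Hist1h4d (limma-voom -0.11, left-out -0.0051 to 0.35); the cause was not tested. Over all single genes and alternatives, the threshold was lost in 48 fits and gained in 6. With 1 library left out, Casp8ap2 ranged from 0.07 to 0.28, Nasp from 0.09 to 0.24 and Pcna from 0.07 to 0.22, and Chaf1b was 0.24 in limma-voom. The 39 untested members held 1157 counts in all; the cause of their low counts was not tested.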
